A study of Mus musculus with 6 samples.

Results

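The genes of the nuclear pore and of the transport receptors that pass through it were described in hearts of 10-day-old mice. They were chosen by symbol from the protein-coding rows of the deposited table. Symbols beginning with Nup and a digit were taken as nucleoporins, together with Tpr. Symbols beginning with Ipo, Xpo, Tnpo, Kpna or Kpnb, together with Cse1l, were taken as carriers (karyopherins), and Ran, Rcc1 and Rangap1 as the genes of the Ran cycle. This gave 49 genes of the 46452 in the table, of which 22 were nucleoporins, 24 were carriers and 3 belonged to the Ran cycle. Messenger RNA was sequenced in 6 heart libraries, 3 labelled Nat10flox/flox and 3 labelled Nat10-CKO. The first label names an allele of the acetyltransferase gene Nat10 flanked by loxP sites, and the second names a conditional knockout of that gene. The labels do not name the Cre driver, the deleted exons or the strain, and they call the libraries of each group independent biological replicates.

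The nuclear pore complex is a ring-shaped channel through the nuclear envelope. A scaffold of outer Y-shaped complexes and an inner ring holds it in the membrane, and nucleoporins rich in phenylalanine-glycine (FG) repeats fill the channel and form its permeability barrier. Filaments reach into the cytoplasm and a basket reaches into the nucleus. Karyopherins bind a cargo's import or export signal and cross the FG barrier. The small GTPase Ran gives the traffic its direction, because Rcc1 in the nucleus loads it with GTP and Rangap1 in the cytoplasm makes it hydrolyse that GTP. Importins release cargo on meeting Ran-GTP, and exportins hold cargo only together with Ran-GTP.

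Levels were in FPKM, fragments per kilobase of a gene's length with a scaling for the size of each library, so that they can be compared between genes. The 6 libraries held between 31155521 and 38051266 reads in genes. Nat10 itself went against its label. It stood at 3.75, 4.18 and 4.71 FPKM in the Nat10flox/flox libraries, against 8.28, 8.66 and 10.2 FPKM in those labelled Nat10-CKO, and was 2.14-fold higher (log2 fold change 0.94 ± 0.12 SE, limma adjusted p = 0.00142). The deleted exons are not given, so these gene-level reads may or may not cover them, and the second group is called by its label throughout. Mitochondrially encoded genes took 16.6% to 18.3% of the reads in the Nat10flox/flox libraries and 7.56% to 9.26% in those labelled Nat10-CKO. None of the 5 cardiomyocyte markers passed the test, and their summed level was 7990 to 9007 FPKM in the Nat10flox/flox libraries and 7034 to 11156 FPKM in those labelled Nat10-CKO. All 5 endothelial markers were lower in the libraries labelled Nat10-CKO, with sums of 245 to 299 against 140 to 152 FPKM. So were 3 of 5 mural markers (sums of 239 to 279 against 117 to 155 FPKM), all 3 tested erythroid markers (645 to 1654 against 397 to 515) and all 4 tested markers of cycling cells (8.90 to 15.2 against 1.16 to 3.24). None of the 5 fibroblast and none of the 5 macrophage markers passed. In bulk tissue fewer cells of a type and less RNA per cell cannot be told apart, and the part of these differences in the results below was not tested. Library 1 stood apart in each group, with correlations of 0.948 and 0.951 to the other Nat10flox/flox libraries, which correlated at 0.985 with each other, and of 0.968 and 0.958 to the others labelled Nat10-CKO, which correlated at 0.987. Nat10flox/flox library 1 also held 117 FPKM of the neuronal filament gene Prph and 73.5 FPKM of the neuronal gene Stmn2. Neither exceeded 1.72 FPKM in the other 5 libraries.

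Of the 49 genes, 44 had a mean of at least 1 FPKM over the 6 libraries and were tested. All 44 also had a mean of at least 1 FPKM in each group, and they were covered by 106 to 17442 reads per library. Of these, 26 were higher in the libraries labelled Nat10-CKO, 0 were lower and 18 did not pass the test (limma, Benjamini-Hochberg adjusted p under 0.05 over 11996 genes). At an unadjusted p under 0.05 the number lower was also 0, and limma's voom on the recovered reads called 1 lower (Ipo13). Among all tested genes 24.4% were called higher and 16.0% lower, 40.5% in all. The members called higher were 8 of 18 tested nucleoporins, 16 of 23 tested carriers and 2 of 3 Ran cycle genes. The median log2 fold change was 0.30 in the nucleoporins and 0.60 in the carriers, and 0.03 over all tested genes. In 30 of the 44 genes every library labelled Nat10-CKO was above every Nat10flox/flox library, against 31.5% of all tested genes. In 2 genes, Ipo13 and Xpo6, every one was below, against 24.4% of all tested genes. Groups that did not overlap in either direction made up 55.9% of all tested genes. A fold of at least 2 together with a call was reached by 7 members, against 10.5% of all tested genes, and these were Nup43, Nup62, Nup214, Ipo4, Xpo5, Cse1l and Xpo4. When the mitochondrially encoded genes were left out before scaling, the share of calls that were higher moved from 60.4% to 41.7% over all genes and the median log2 fold change of all genes from 0.03 to -0.12. On that scale 6 nucleoporins and 14 carriers were called higher, and Ipo13 and Xpo6 were called lower. With the libraries numbered 1 left out of both groups, 7 nucleoporins, 15 carriers and 2 Ran cycle genes were called higher.

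**Figure D1:**
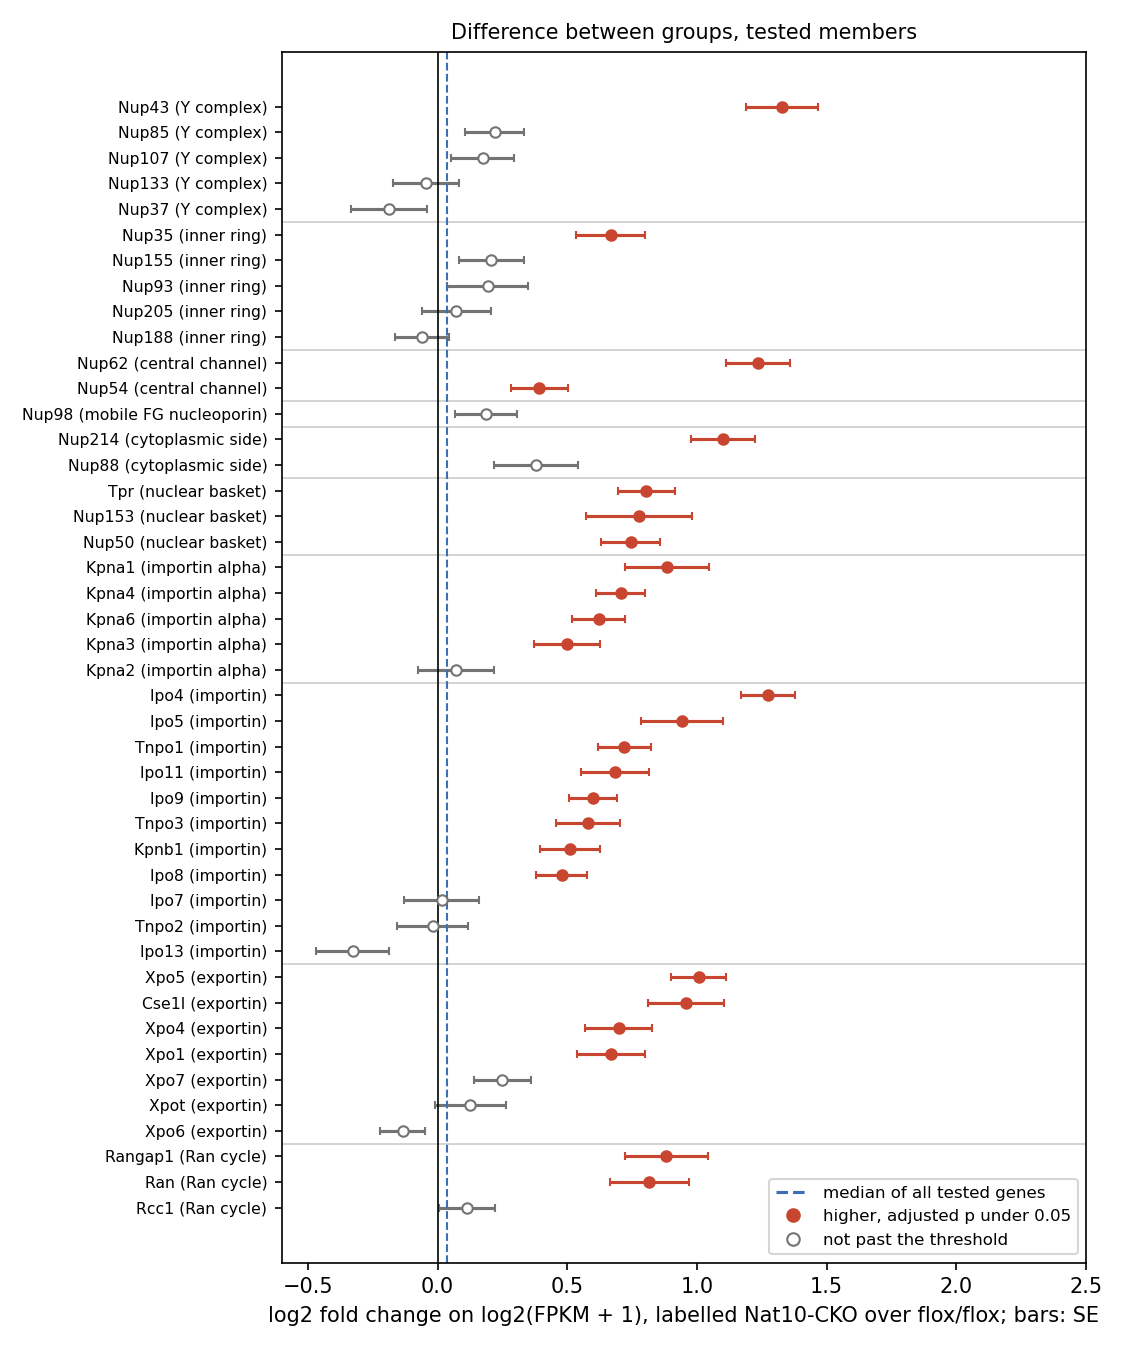
Log2 fold change of the 44 tested genes, libraries labelled Nat10-CKO over Nat10flox/flox, on log2(FPKM + 1), by role, with bars for the SE of limma's fit to 3 libraries per group. Filled points mark the 26 genes called higher, open points the 18 that did not pass, and the dashed line is the median of all tested genes, 0.03.

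Promoter sequence was available for 39 of the 49 genes, in 46 RefSeq windows of 250 bases before to 50 bases after a start (annotated on GRCm38.p6). The core of the site bound by nuclear respiratory factor 1 (NRF1), a 10-base palindrome, was in 5 of these windows (10.9%). It was in 1.95% of the windows of all tested genes and in 0.971% of all windows in the table. The windows of the 39 genes were also richer in G and C, with a median of 64.2% against 60.7% in those of all tested genes, and in CpG, with a median of 27.5 against 20. The 5 windows belonged to Nup107, Nup50, Nup62, Ran and Xpo5, and the last 4 of these were among the genes called higher. Of the tested members 59.1% were called higher, and of all tested genes 24.4%. The NRF1 core was in 4 of 22 windows of members called higher and in 1 of 20 of members tested and not called. Among all tested genes called higher it was in 2.44% of the windows, close to the 1.95% of all tested genes. The E-box CACGTG, also a palindrome, was in 8 windows (17.4%), against 10.1% of those of all tested genes. It was in 3 of 22 windows of members called higher and in 5 of 20 windows of members that were tested and not called. CCAAT, read on either strand, was in 52.2% of the members' windows and in 36.9% of those of all tested genes. A match is a stretch of letters, and binding was not measured here. The 250 bases before the start are shown for the 5 genes with the NRF1 core, because they let the position, the number of copies and the surrounding sequence be compared. The letters are RefSeq's, each was found at a single exact place in GRCm39 and carries its coordinates there, and it is written 5′ to 3′ on the gene's strand with the NRF1 core (10 letters) and CACGTG (6 letters) in capitals.
Nup107 chr10:117628611-117628860 minus strand: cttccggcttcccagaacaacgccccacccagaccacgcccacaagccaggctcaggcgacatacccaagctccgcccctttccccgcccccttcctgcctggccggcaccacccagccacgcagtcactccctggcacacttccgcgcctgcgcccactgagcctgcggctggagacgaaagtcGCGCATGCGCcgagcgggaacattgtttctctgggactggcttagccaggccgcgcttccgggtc
Nup50 chr15:84807379-84807628 plus strand: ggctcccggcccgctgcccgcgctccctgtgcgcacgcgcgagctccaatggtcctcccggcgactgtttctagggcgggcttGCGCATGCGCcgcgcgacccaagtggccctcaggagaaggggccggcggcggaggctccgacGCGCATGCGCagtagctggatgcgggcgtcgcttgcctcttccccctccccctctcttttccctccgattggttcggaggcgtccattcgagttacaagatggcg
Nup62 chr7:44465262-44465511 plus strand: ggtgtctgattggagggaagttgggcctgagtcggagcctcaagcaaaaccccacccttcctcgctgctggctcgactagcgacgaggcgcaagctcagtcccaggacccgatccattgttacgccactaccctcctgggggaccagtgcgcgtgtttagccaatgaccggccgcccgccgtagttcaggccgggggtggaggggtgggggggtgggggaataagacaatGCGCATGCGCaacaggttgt
Ran chr5:129096970-129097219 plus strand: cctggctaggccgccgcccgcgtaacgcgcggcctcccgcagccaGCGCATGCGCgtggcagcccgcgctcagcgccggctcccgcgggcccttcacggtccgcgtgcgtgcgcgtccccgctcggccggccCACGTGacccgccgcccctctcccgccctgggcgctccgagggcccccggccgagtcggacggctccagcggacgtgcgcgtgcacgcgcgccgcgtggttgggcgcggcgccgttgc
Xpo5 chr17:46513487-46513736 plus strand: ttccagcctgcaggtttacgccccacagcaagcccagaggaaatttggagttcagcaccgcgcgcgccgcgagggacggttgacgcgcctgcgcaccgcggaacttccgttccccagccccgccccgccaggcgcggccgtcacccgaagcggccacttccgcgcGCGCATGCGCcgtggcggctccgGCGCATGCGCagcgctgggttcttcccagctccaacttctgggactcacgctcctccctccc
Nup50 and Xpo5 hold 2 exact copies of the searched palindrome each in the bases shown, and Ran also holds CACGTG. Stretches that differ from the palindrome by a letter, such as gcgcacgcgc in Nup50, were not counted.

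The Y complex forms the outer rings of the pore's scaffold. Of the 5 tested genes counted here as its subunits with a Nup symbol 1 rose, a share near that of all tested genes (24.4%). Nup98, given below, was not counted with them. Of the subunits with other symbols, Sec13 (means of 34.5 and 63.7 FPKM, limma adjusted p = 0.00137) and Ahctf1 (3.49 and 5.88 FPKM, 0.0175) rose, and Seh1l (7.38 and 9.29 FPKM) did not pass. Nup43 (gene 69912, chr10:7543268-7554650, plus strand), a subunit of the short arm of the Y, stood at 2.06, 2.60 and 2.46 FPKM in the Nat10flox/flox libraries, against 9.04, 6.81 and 6.68 FPKM in those labelled Nat10-CKO. The groups lay far apart, and the gene was 3.17-fold higher (log2 fold change 1.33 ± 0.14 SE, limma adjusted p = 0.000783). Its whole deposited span of 11383 bases lies within Pcmt1 on the opposite strand, which stood at 11.7 and 14.7 FPKM on average, and no source used here says whether the counting used the strand. The other 4 tested subunits with a Nup symbol did not pass. Nup85 had means of 7.48 and 8.87 FPKM (log2 fold change 0.22, adjusted p = 0.166 by limma), Nup107 of 4.26 and 4.92 (0.17, 0.291), Nup133 of 3.56 and 3.41 (-0.05, 0.8002) and Nup37 of 3.46 and 2.93 (-0.19, 0.342). Nup160, another subunit of the Y, averaged under 1 FPKM and was not tested. It stood at 0.776, 0.922 and 0.903 against 1.29, 1.08 and 0.938 FPKM.

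The inner ring, which lines the membrane curve of the pore, also had 1 of 5 tested genes called higher. Nup35 (gene 69482, chr2:80469156-80490415, plus strand), which binds that membrane, stood at 1.58, 1.63 and 1.98 FPKM against 2.75, 3.65 and 3.65 FPKM. It was 1.94-fold higher without overlap of the groups (log2 fold change 0.67 ± 0.13 SE, limma adjusted p = 0.00824). Its partners Nup155 and Nup93 had log2 fold changes of 0.21 and 0.19 and limma adjusted p of 0.224 and 0.355. Nup205 and Nup188, the large solenoid proteins of the ring, had log2 fold changes of 0.07 and -0.06, with adjusted p of 0.685 and 0.672. Among these genes Nup93 was the one in which Nat10flox/flox library 1 was the highest of its group, at 2.29 against 1.34 and 1.504 FPKM.

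Both tested genes of the central channel rose, against 24.4% of all tested genes called higher. Nup62 (gene 18226, chr7:44465512-44481260, plus strand), an FG nucleoporin of the channel and the one whose upstream sequence is shown with the NRF1 core near its end, stood at 7.46, 8.55 and 6.89 FPKM against 17.2, 19.2 and 21.6 FPKM. Every library labelled Nat10-CKO was at least 17.2 FPKM, and the fold was 2.54 (log2 fold change 1.24 ± 0.12 SE, limma adjusted p = 0.000694). It shares 571 bases with Atf5 on the opposite strand, a stress-responsive transcription factor gene that averaged 25.1 and 83.0 FPKM. Nup54 (gene 269113, chr5:92563399-92583117, minus strand), its partner in the channel trimer, stood at 4.81, 5.28 and 5.11 against 7.05, 6.07 and 7.85 FPKM, a fold of 1.38 (log2 fold change 0.39 ± 0.11 SE, limma adjusted p = 0.0302). The call was lost in 11 of the alternatives tried. Its limma adjusted p was 0.0901, 0.0732 and 0.0824 without Nat10flox/flox library 1, 2 or 3, and 0.0511 and 0.0752 without library 1 or 3 labelled Nat10-CKO. The third gene of the trimer, Nup58, is listed as Nupl1 and lies outside the naming rule. It averaged 3.51 and 4.08 FPKM with a limma adjusted p of 0.191.

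On the cytoplasmic side Nup214 rose. Nup214 (gene 227720, chr2:31863871-31943987, plus strand), an FG nucleoporin of the cytoplasmic filaments that binds the exportin Xpo1, stood at 2.91, 3.24 and 3.31 FPKM against 8.80, 6.60 and 8.45 FPKM. It was 2.52-fold higher (log2 fold change 1.10 ± 0.12 SE, limma adjusted p = 0.001), with no overlap of the groups. It overlaps Fam78a on the opposite strand, which averaged 2.998 and 1.55 FPKM. Nup88, the partner that anchors Nup214, stood at 12.8, 15.1 and 16.0 against 16.8, 17.5 and 24.04 FPKM. Its groups did not overlap, but the difference did not pass (log2 fold change 0.38, limma adjusted p = 0.106). Nup98, an FG nucleoporin found on both faces of the pore, stood at 4.16, 5.66 and 5.08 against 5.61, 5.55 and 6.09 FPKM, with overlapping groups (log2 fold change 0.19, limma adjusted p = 0.254). On the opposite strand Nup98 shares 2804 bases with Art1, which averaged 56.8 and 8.12 FPKM, and 223 bases with Pgap2.

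All 3 genes of the nuclear basket rose, by similar amounts, against 24.4% of all tested genes called higher. Tpr (gene 108989, chr1:150268544-150325686, plus strand), the coiled-coil protein that builds the basket's filaments, stood at 14.3, 16.8 and 17.3 FPKM against 29.7, 27.3 and 29.6 FPKM, 1.79-fold higher (log2 fold change 0.80 ± 0.11 SE, limma adjusted p = 0.00196). In both groups it was the most abundant per length of the genes taken here as nucleoporins, which leave out Sec13. Nup50 (gene 18141, chr15:84800100-84827164, plus strand), which binds importin alpha and helps to free its cargo, stood at 2.54, 2.37 and 2.06 FPKM against 4.84, 4.05 and 4.82 FPKM, 1.97-fold higher (log2 fold change 0.74 ± 0.11 SE, limma adjusted p = 0.00292). Nup153 (gene 218210, chr13:46833369-46890682, minus strand), the FG nucleoporin that tethers the basket, stood at 5.95, 7.02 and 6.67 FPKM against 16.8, 9.33 and 10.7 FPKM. Library 1 labelled Nat10-CKO was well above the other two. The fold was 1.87 with it (log2 fold change 0.78 ± 0.20 SE, limma adjusted p = 0.0233) and 1.53 without it. The call was lost without Nat10flox/flox library 1, 2 or 3, with limma adjusted p of 0.0668, 0.0574 and 0.0653. Tpr shares 524 bases with Prg4 on the opposite strand, which averaged 0.341 and 24.7 FPKM, and 288 bases with Odr4.

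**Figure D2:**
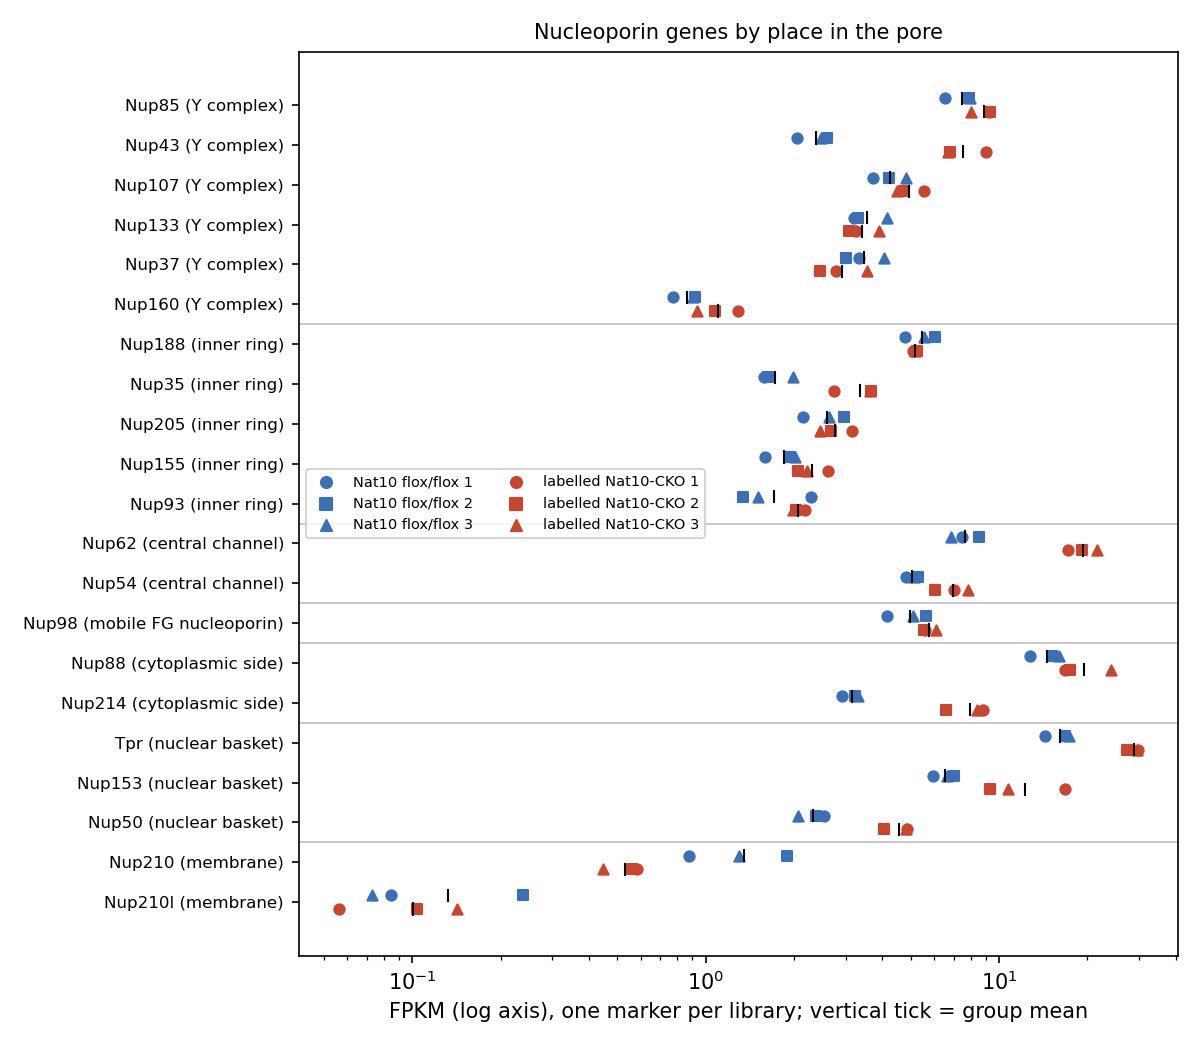
FPKM of the nucleoporin genes on a log axis, grouped by their place in the pore, with 1 marker per library (3 per group) and a vertical tick at each group mean. Every library labelled Nat10-CKO is above every Nat10flox/flox library in 11 tested nucleoporins, against 31.5% of all tested genes. These are the 3 basket genes, Nup43, Nup62, Nup214, Nup35, Nup54, Nup85, Nup88 and Nup155. The groups also separate for Nup160, and in the other direction for Nup210, both not tested. Nup62cl is not drawn because 1 of its values is 0.

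The membrane nucleoporin Nup210 was lower in all 3 libraries labelled Nat10-CKO than in any of the others. It stood at 0.875, 1.89 and 1.29 FPKM against 0.581, 0.560 and 0.447 FPKM, a mean 2.55 times higher in the Nat10flox/flox libraries. Its mean over the 6 libraries was under 1 FPKM, so it was not tested with the rest. With no filter on low values, limma on all 6 libraries gave it an adjusted p of 0.0854. Without the libraries numbered 1, limma on the remaining 4 libraries gave 0.0171, and without 1 library labelled Nat10-CKO 0.0691 to 0.105. In those settings Nup210 passed the filter only through the Nat10flox/flox libraries, where it was high. These adjusted p are therefore not separate support for a difference. Nup210 is known for a pattern that differs between tissues and for a role in muscle differentiation. Its relative Nup210l was under 0.240 FPKM in every library, and Nup62cl, a relative of Nup62, did not exceed 0.0802 FPKM. In 8 of the 49 genes the deposited span overlaps a gene with a mean of at least 1 FPKM, in each case on the opposite strand. With those 8 set aside, 4 of 11 tested nucleoporins and 15 of 22 tested carriers were called higher, against 24.4% of all tested genes. With them kept, the counts were 8 of 18 and 16 of 23.

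Of the Ran cycle, the GTPase and its cytoplasmic activator rose and the nuclear exchange factor did not pass. Ran (gene 19384, chr5:129097220-129101386, plus strand) stood at 41.8, 47.2 and 48.3 FPKM in the Nat10flox/flox libraries and at 98.6, 76.9 and 70.6 FPKM in those labelled Nat10-CKO. The lowest of the second group was 70.6 FPKM, and the fold was 1.79 (log2 fold change 0.82 ± 0.15 SE, limma adjusted p = 0.00645). Rangap1 (gene 19387, chr15:81588449-81614120, minus strand) stood at 18.0, 11.6 and 13.2 FPKM against 27.0, 27.2 and 25.997 FPKM, 1.87-fold higher (log2 fold change 0.88 ± 0.16 SE, limma adjusted p = 0.00604). Its values within the second group were nearly equal, while Nat10flox/flox library 1 was the highest of its own group, and the fold was 2.16 without that library. Rcc1 (gene 100088, chr4:132059230-132073061, minus strand) stood at 4.54, 5.75 and 5.15 FPKM against 5.96, 5.38 and 5.55 FPKM, with overlapping groups (1.09-fold, log2 fold change 0.11 ± 0.11 SE, limma adjusted p = 0.431).

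Importin alpha proteins, encoded by the Kpna genes, bind the classical nuclear localisation signal and hand the cargo to importin beta. Of 5 tested genes 4 rose, against 24.4% of all tested genes. Kpna1 (gene 16646, chr16:35803692-35857506, plus strand) stood at 15.3, 18.3 and 19.7 FPKM against 41.0, 31.3 and 29.3 FPKM, 1.91-fold higher (log2 fold change 0.89 ± 0.16 SE, limma adjusted p = 0.00608). Kpna4 (gene 16649, chr3:68979554-69034425, minus strand) stood at 21.4, 22.8 and 22.6 FPKM against 35.9, 36.1 and 38.9 FPKM, with little spread in either group, and was 1.66-fold higher (log2 fold change 0.71 ± 0.09 SE, limma adjusted p = 0.00181). Kpna6, the closest relative of Kpna1, rose 1.58-fold (limma adjusted p = 0.00408). Kpna3, the closest relative of Kpna4, rose 1.43-fold (limma adjusted p = 0.0212), a call that was lost without Nat10flox/flox library 1 (adjusted p = 0.0627) or 3 (0.0651). Kpna2 did not pass. It stood at 15.6, 15.7 and 19.6 FPKM against 15.0, 19.1 and 19.6 FPKM, so that the groups covered nearly the same range (log2 fold change 0.07, limma adjusted p = 0.725). Kpna2 is the importin alpha best known from dividing cells, and the markers of cycling cells were lower, as given above. Their part in the level of Kpna2 was not tested. Kpna7, known from oocytes and early embryos, had 0 reads in all 6 libraries, which allows up to 0.0317 to 0.0407 FPKM per library (3 reads).

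Shares of the importin alpha pool are given here as values with no test. Those of Kpna1 and Kpna2 did not overlap between the groups, and those of Kpna3, Kpna4 and Kpna6 did. Kpna2 was 18.9%, 16.8% and 20.4% of the summed FPKM of the Kpna genes in the Nat10flox/flox libraries and 10.4%, 14.3% and 14.1% in those labelled Nat10-CKO. Kpna1 was 19.5% ± 1.0 (SD, n = 3) and 24.3% ± 3.8. The share of Kpna4 was 24.6% ± 1.2 and 26.6% ± 1.5, that of Kpna6 16.0% ± 0.4 and 16.4% ± 1.3, and that of Kpna3 21.1% ± 1.7 and 19.7% ± 1.1. The ratio of Kpna1 to Kpna2 was 0.979, 1.16 and 1.01 in the first group and 2.73, 1.64 and 1.49 in the second.

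**Figure D3:**
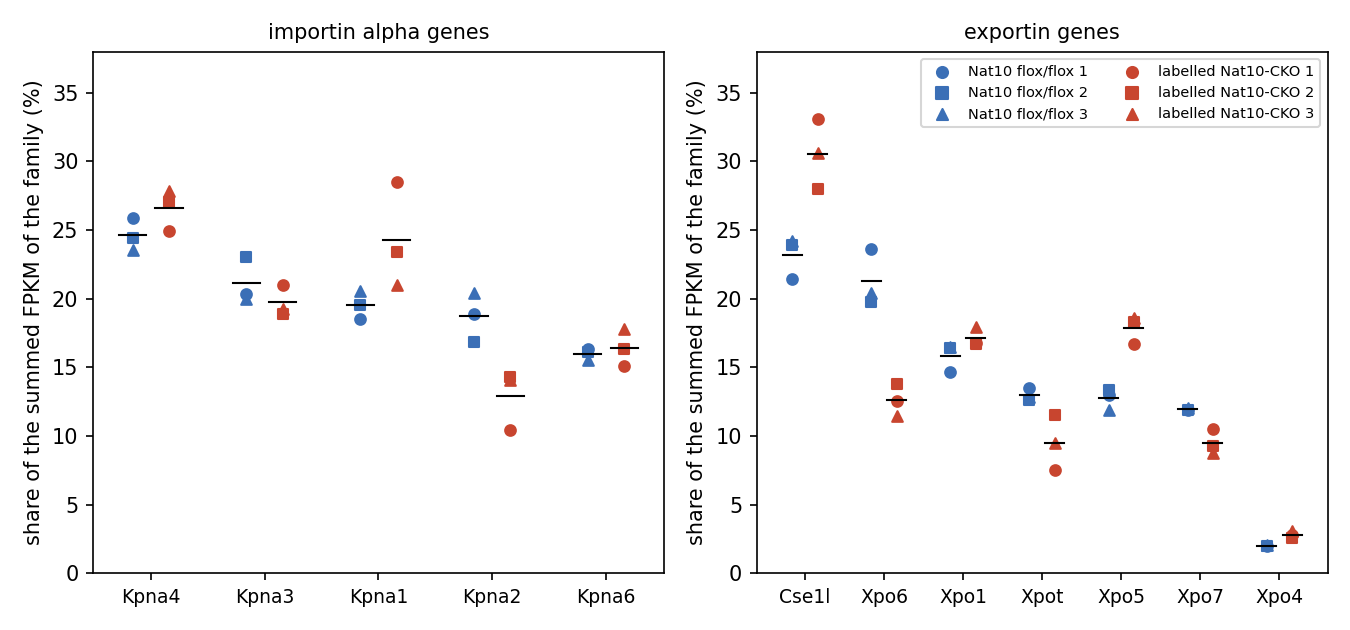
Share of each gene in the summed FPKM of its carrier family, in percent, per library, for the importin alpha and exportin families. The Kpna2 share lies at 16.8% to 20.4% in the Nat10flox/flox libraries and at 10.4% to 14.3% in the libraries labelled Nat10-CKO.

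The importins of the beta type carry cargo through the pore themselves, and 8 of 11 rose, against 24.4% of all tested genes. Ipo4 (gene 75751, chr14:55862857-55873321, minus strand), which imports histones and ribosomal proteins, had the largest log2 fold change among the carriers. It stood at 13.9, 14.0 and 15.9 FPKM against 35.1, 38.9 and 36.0 FPKM, 2.51-fold higher (log2 fold change 1.27 ± 0.10 SE, limma adjusted p = 0.000394). Ipo5 (gene 70572, chr14:121134255-121185458, plus strand), another importer of ribosomal proteins and histones, was the most abundant carrier per length in both groups. It stood at 34.4, 40.9 and 44.0 FPKM against 91.1, 75.6 and 66.3 FPKM, 1.95-fold higher (log2 fold change 0.94 ± 0.16 SE, limma adjusted p = 0.00426). Kpnb1 (gene 16211, chr11:97050536-97078718, minus strand), which is importin beta itself and the partner of the Kpna proteins, stood at 29.8, 33.7 and 31.2 FPKM against 50.7, 42.9 and 42.7 FPKM. It was 1.44-fold higher (log2 fold change 0.51 ± 0.11 SE, limma adjusted p = 0.0133), and the adjusted p was 0.0501 without Nat10flox/flox library 3.

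Tnpo1 (gene 238799, chr13:98975527-99063064, minus strand), the importer of hnRNP proteins with a proline-tyrosine signal, stood at 8.39, 9.27 and 9.33 FPKM against 16.1, 14.1 and 16.3 FPKM, 1.72-fold higher (log2 fold change 0.72 ± 0.10 SE, limma adjusted p = 0.0022). Its close relative Tnpo2 stood at 7.98, 5.54 and 6.16 against 6.12, 6.86 and 6.22 FPKM, with overlapping groups (log2 fold change -0.02, limma adjusted p = 0.923). Ipo11 (gene 76582, chr13:106930947-107073466, minus strand), which imports ubiquitin-conjugating enzymes, stood at 3.27, 3.36 and 3.93 FPKM against 5.59, 5.77 and 7.53 FPKM, 1.79-fold higher (log2 fold change 0.68 ± 0.13 SE, limma adjusted p = 0.00751). Ipo9, Tnpo3 (the importer of SR splicing factors) and Ipo8 rose 1.58-fold, 1.54-fold and 1.46-fold, with limma adjusted p of 0.00337, 0.0105 and 0.00967. Ipo7, the close relative of Ipo8, stood at 27.5, 32.0 and 34.3 against 26.9, 32.0 and 36.1 FPKM (log2 fold change 0.02, limma adjusted p = 0.942). Ipo13, which imports some cargoes and exports others, stood at 24.5, 24.2 and 27.1 against 16.7, 20.1 and 23.3 FPKM. Its groups did not overlap and its difference of -0.33 on the log2 scale did not pass (limma adjusted p = 0.104). It passed without library 3 labelled Nat10-CKO (adjusted p = 0.0475).

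Of the 7 exportins 4 rose, against 24.4% of all tested genes. Xpo5 (gene 72322, chr17:46513737-46554524, plus strand), the exporter of microRNA precursors and the carrier whose upstream sequence is shown, stood at 7.30, 8.68 and 7.65 FPKM against 15.9, 16.2 and 18.3 FPKM, 2.14-fold higher (log2 fold change 1.01 ± 0.11 SE, limma adjusted p = 0.000837). Cse1l (gene 110750, chr2:166747961-166788309, plus strand), which returns importin alpha to the cytoplasm, stood at 12.0, 15.6 and 15.5 FPKM against 31.5, 24.8 and 30.2 FPKM, 2.01-fold higher (log2 fold change 0.96 ± 0.15 SE, limma adjusted p = 0.00302). Xpo4 (gene 57258, chr14:57814978-57906951, minus strand) was the least abundant tested carrier, at 1.10, 1.30 and 1.35 FPKM against 2.66, 2.26 and 3.07 FPKM, and was 2.13-fold higher (log2 fold change 0.70 ± 0.13 SE, limma adjusted p = 0.00637). Xpo1 (gene 103573, chr11:23205909-23247597, plus strand), the general exporter of proteins with a leucine-rich signal and of ribosomal subunits, stood at 8.26, 10.7 and 10.6 FPKM against 16.0, 14.8 and 17.7 FPKM. It was 1.64-fold higher without overlap (log2 fold change 0.67 ± 0.13 SE, limma adjusted p = 0.00765).

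The remaining 3 exportins did not pass. Xpo7 averaged 7.38 and 8.98 FPKM (log2 fold change 0.25, limma adjusted p = 0.116). Xpot, the exporter of transfer RNA, averaged 8.02 and 8.93 FPKM (0.13, 0.487). Xpo6, the exporter of actin, stood at 13.3, 12.8 and 13.1 against 12.0, 12.2 and 11.3 FPKM, with every library labelled Nat10-CKO below the others (log2 fold change -0.13, limma adjusted p = 0.254). Among the exportins Xpo6 was 21.3% ± 2.1 (SD, n = 3) of the summed FPKM in the Nat10flox/flox libraries and 12.6% ± 1.2 in those labelled Nat10-CKO. Over the same libraries Cse1l was 23.2% ± 1.5 and 30.6% ± 2.6, and Xpo5 was 12.7% ± 0.7 and 17.9% ± 1.0.

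**Figure D4:**
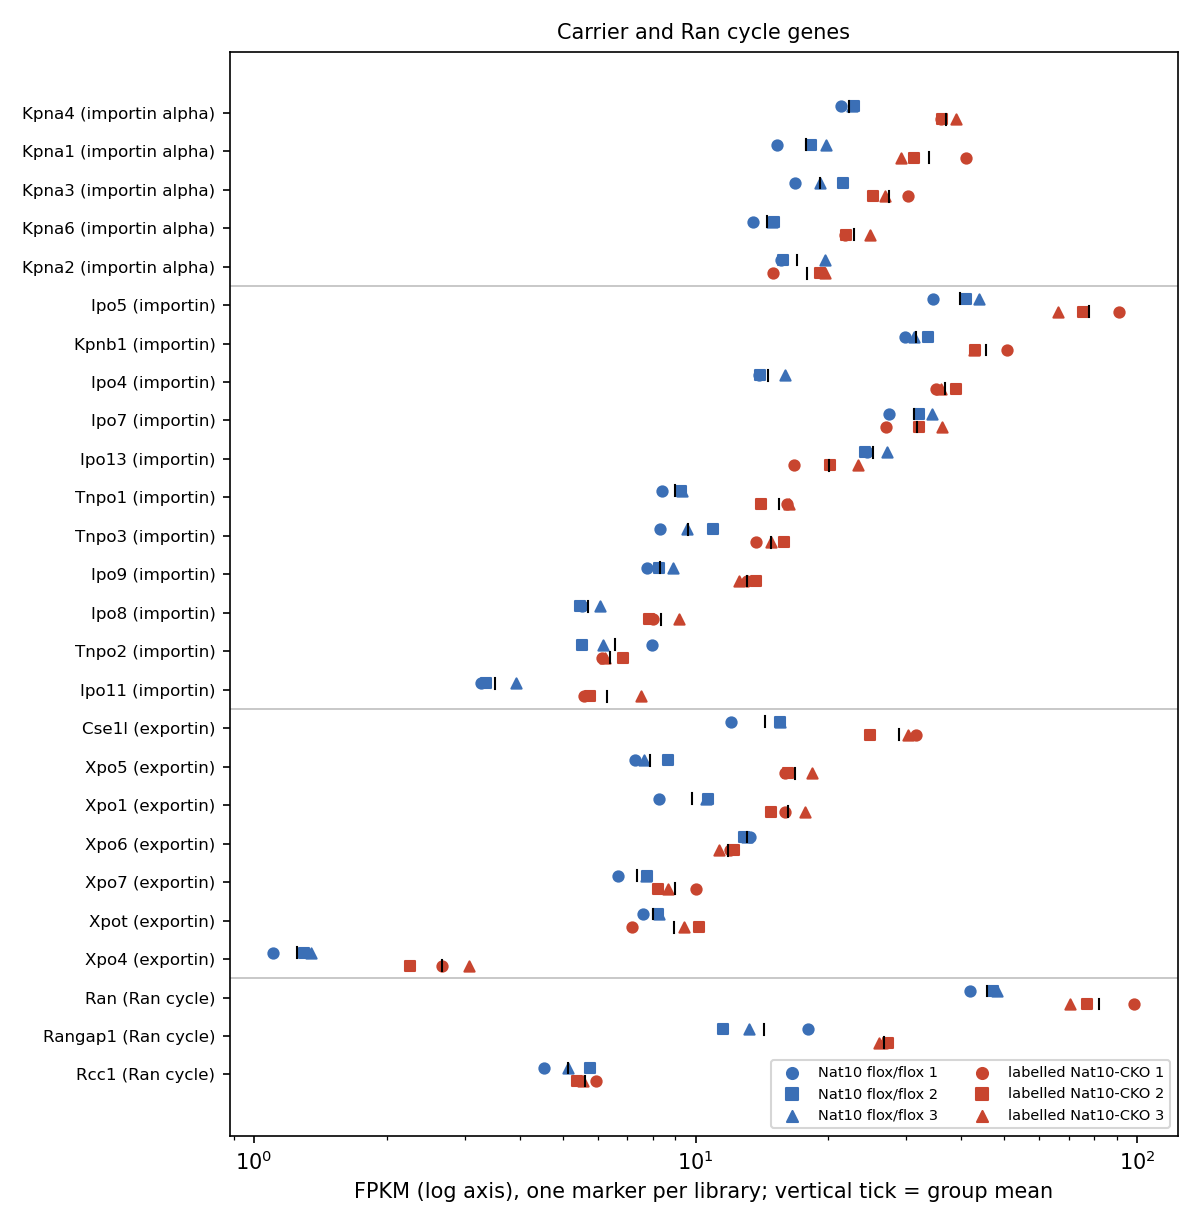
FPKM of the carrier and Ran cycle genes on a log axis, grouped by family, with 1 marker per library (3 per group) and a vertical tick at each group mean. Ipo4, Xpo5 and Kpna4 show separate and narrow groups, while Kpna2, Ipo7, Tnpo2 and Rcc1 overlap.

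Related genes were set against each other within each library, as 8 ratios whose choice was not planned beforehand. Each was tested with a two-sided exact permutation test over the 6 libraries, in which 3 against 3 cannot go below p = 0.1. The groups did not overlap in 6 of the 8 ratios, each with exact p = 0.1 and 0.133 after Benjamini-Hochberg adjustment. For single genes the groups did not overlap in 55.9% of all tested genes. Each of the 6 ratios set a gene called higher above against a gene that did not pass, so it is not separate support for those calls. These were Nup43 to Nup37 (mean 0.696 and 2.64), Xpo5 to Xpo6 (0.603 and 1.43), Nup214 to Nup88 (0.216 and 0.417), Kpna1 to Kpna2 (1.05 and 1.95), Tnpo1 to Tnpo2 (1.41 and 2.43) and Ipo8 to Ipo7 (0.183 and 0.266). The first value is the mean of the Nat10flox/flox libraries and the second that of the libraries labelled Nat10-CKO. Kpna1 to Kpna6 and Kpna4 to Kpna3 overlapped, with exact p of 0.3 and 0.2.

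Summed over each class, pore genes and carriers were both at a higher level per length in every library labelled Nat10-CKO. The nucleoporins summed to 87.9, 102 and 102 FPKM in the Nat10flox/flox libraries and to 154, 140 and 157 FPKM in those labelled Nat10-CKO. The carriers summed to 310, 346 and 357 FPKM and to 522, 496 and 509 FPKM. The ratio of carriers to nucleoporins was 3.53, 3.39 and 3.50 in the first group and 3.38, 3.56 and 3.25 in the second, which overlap. Import receptors (the beta-type importins) over exportins stood at 3.05, 2.88 and 3.06 and at 2.97, 3.09 and 2.75. Kpnb1 over Cse1l, the receptors that bring importin alpha in and take it out, stood at 2.47, 2.16 and 2.01 and at 1.61, 1.73 and 1.41, with no overlap. Nat10flox/flox library 1 was the lowest of its group for 35 of the 44 tested members (79.5%), against 45.1% of all tested genes.

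Pore genes whose symbols do not begin with Nup and a digit were counted as a separate list. Of 11 tested, 8 were higher and 0 lower, with a median log2 fold change of 0.55. Over all tested genes 24.4% were called higher and 16.0% lower. Rae1, an mRNA export factor at the pore, averaged 11.2 and 25.1 FPKM, a fold of 2.24. Pom121, which anchors the pore in the membrane, averaged 7.31 and 16.8 FPKM, a fold of 2.30. Ndc1, another membrane anchor, averaged 4.21 and 3.41 FPKM and did not pass, although its groups did not overlap. Among Ran partners and cargo adaptors 4 of 11 tested were higher and 1 lower, against the same shares of all tested genes, with a median of 0.11. Nmd3, the adaptor that links the large ribosomal subunit to Xpo1, averaged 10.4 and 46.4 FPKM, a fold of 4.48. Ranbp3, a cofactor of Xpo1, averaged 13.6 and 38.03 FPKM, a fold of 2.80. The single gene called lower was Rasl2-9, a Ran-like gene, at 2.49 and 0.772 FPKM.

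Messenger RNA leaves the nucleus through the same pores by a route that does not use karyopherins. Of 19 genes of that route 5 were higher, 1 was lower and 13 did not pass, with a median log2 fold change of 0.28. The share called higher was near that of all tested genes (24.4%), of which 16.0% were called lower. Ddx39a, a helicase of the export complex, averaged 5.05 and 12.7 FPKM, and Thoc6, a subunit of the THO complex, 4.48 and 9.80 FPKM. The export receptor Nxf1 averaged 16.5 and 14.4 FPKM and did not pass. Of 15 genes of the lamina and the nuclear envelope 6 were higher, 4 lower and 5 did not pass, with a median of 0.12. Over all tested genes the shares were 24.4% higher and 16.0% lower. Lemd2, an inner membrane protein, was 1.95-fold higher and Syne1, which links the envelope to the cytoskeleton, 2.08-fold higher. Lmna, the gene of the A-type lamins, averaged 29.5 and 80.5 FPKM, and Lmnb1, of a B-type lamin, 6.76 and 2.60 FPKM. These 2 lamin genes were called in opposite directions. Sec13, Ahctf1, Seh1l, Ndc1, Rasl2-9, Nxf1, Lmna and Lmnb1 were named after their values were seen.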

How the data were processed

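Poly-T selected heart RNA was made into 6 directional (dUTP) libraries and sequenced as 150 bp pairs on a NovaSeq X Plus, per the labels' protocols. Alignment to GRCm39 used HISAT2 2.2.1 and counting used featureCounts 2.0.6, per the series' design text. CASAVA and DESeq2 1.42.0 stand in the submitters' processing notes as well. The authors deposited FPKM per gene and library. Neither the strand setting of the counting nor the definition of gene length is stated, so values of overlapping genes are uncertain. Reads per gene were recovered from FPKM times gene length, where 1 read per kb was worth 0.0246 to 0.0316 FPKM. Limits at 0 reads cover counting error only.

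The groups' log2(FPKM + 1) values were compared by limma 3.58.1 (R 4.3.3; lmFit, eBayes with trend), two-sided, for the 11996 genes averaging at least 1 FPKM. Benjamini-Hochberg adjustment ran over all of them, with a threshold of 0.05. On this scale low genes appear to change less than they do. Each fold is a ratio of group means in FPKM. The labels name no batch. Full statistics went to up to 8 nucleoporins and 10 carriers with the largest called change and no overlap, and to Ran, Rcc1, Rangap1, Xpo1, Kpnb1 and Tpr. Of each further list the 2 genes with the smallest adjusted p were named. The members and lists were chosen with earlier results of these data known. Alternatives were other pseudocounts, filters, scalings and weights, a replicate block and leaving out libraries. The test was checked on simulated data. Figures were drawn with matplotlib 3.10.9.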

Additional observations from a re-analysis of the deposited data

How the results depend on the processing

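Of 869 recomputed member results 812 kept their direction and their side of the threshold, 25 lost a call, 10 gained one and 22 changed sign. The results of 29 of the 44 tested members were kept under each alternative recomputed for them, which did not include the limit on the size of the change and, for low members, the filter at 5 FPKM. The changes of sign were all in members that had not passed. With mitochondrially encoded genes left out, the log2 fold change became -0.0492 for Rcc1, -0.17 for Ipo7, -0.11 for Kpna2, -0.0463 for Xpot and -0.0654 for Nup205. Under quantile normalization it became -0.23 for Ipo7 and -0.14 for Kpna2. Ipo7 was at -0.0254 after rescaling on protein-coding genes and at -0.0308 with voom on the recovered reads. With array weights Tnpo2 was at 0.12 and Nup205 at -0.0032. Without the libraries numbered 1, Tnpo2 was at 0.14 and Nup205 at -0.0898. Leaving out 1 library at a time gave -0.08 to 0.12 for Ipo7, -0.12 to 0.11 for Tnpo2, -0.12 to 0.0485 for Nup133, -0.14 to 0.0043 for Nup188 and -0.0161 to 0.15 for Nup205. The cause of these changes was not tested.

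Asking also for a log2 fold change of 1 or more in size left 1520 calls over all genes, 3 nucleoporins, 2 carriers and 0 Ran cycle genes called higher. A mean of at least 5 FPKM, which tests fewer genes, left 5 nucleoporins called higher. Setting aside the members that overlap an expressed gene, an alternative chosen after seeing the data, left 4 of 11 tested. Without the libraries numbered 1, 1 nucleoporin (Nup210) was called lower, a gene that passed the filter there only through the Nat10flox/flox libraries. Among carriers 2 (Ipo13 and Xpo6) were called lower under quantile normalization and also 2 with mitochondrially encoded genes left out. A single carrier, Ipo13, was called lower after protein-coding rescaling (1), with array weights (1) and with voom (1), and leaving out 1 library gave 0 to 1. The lost calls were those of Nup54 (11 alternatives, adjusted p up to 0.138), Kpna3 (6, up to 0.168), Nup153 (5, up to 0.067) and Kpnb1 (3, up to 0.128). Array weights called 6939 genes in all and the main test 4856. The edgeR and DESeq2 fits were left out because the deposited values are FPKM, although voom was run on the recovered reads.

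The labels number the replicates 1 to 3 in each group, and the deviations of same-numbered libraries correlated at 0.065, 0.037 and 0.105, so the numbers were not taken to pair the samples. Not every library correlated best with its own number. With the replicate block 4390 genes were called, among them 7 nucleoporins, 15 carriers and 2 Ran cycle genes called higher, and Nup54 and Kpna3 lost their calls (adjusted p = 0.0585 and 0.0569 by limma). The precision rests on 3 libraries per group.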

Other observations

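Transport genes whose names fall outside the naming rule were also read. Nupl2, which encodes the cytoplasmic FG nucleoporin Nup42, averaged 2.45 FPKM in the Nat10flox/flox libraries and 3.47 FPKM in those labelled Nat10-CKO, with a limma adjusted p of 0.0451 and groups that did not overlap. Ranbp6, a relative of Ipo5, had a log2 fold change of 0.19 and did not pass (limma adjusted p = 0.296).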
